A study of Mus musculus with 96 samples.

Results

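H3K27me3 was compared between Mutyh-/- and wild-type (WT) hippocampal neurons, over the regions that carried the mark in NeuN+ nuclei. All consensus peaks of the neuronal H3K27me3 table were taken except 2 neighbouring ones on chromosome 2, which left 4130 of 4132 peaks in the table and of 22815 peaks in the whole series. The comparison used 6 of the 96 samples, 3 replicates of each genotype. Both groups were 6 months old male mice on the C57BL/6N background. Hippocampi of several animals of a genotype were pooled for a replicate, nuclei were sorted on the neuronal protein NeuN, and H3K27me3 chromatin was precipitated and sequenced. Ogg1-/- mice and mice without both enzymes (DKO), with 3 libraries each, were used to estimate the spread and to compare DKO with Ogg1-/-. They also set an alternative threshold for strong peaks. Their values are given beside those of Mutyh-/- at the strong peaks and at some leading ones.

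Mutyh is the DNA glycosylase that removes adenine mispaired with 8-oxoguanine and so starts base excision repair at that site. H3K27me3 is laid down by Polycomb repressive complex 2 (PRC2), of which Suz12 is a core subunit, and it marks genes that are kept silent. In neurons it typically covers CpG-rich promoters of developmental regulators and of genes that belong to other cell lineages.

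The signal was thin. Each library held between 21138 and 34376 reads in the 4130 peaks, and the median peak had a mean of 4.97 normalised reads, that is reads scaled to a common library size with TMM factors. The standard error of a log2 difference had a median of 0.97, so that only large changes at weak peaks, or moderate ones at strong peaks, could be told from the spread. Mutyh-/- replicate 1 stood apart from the other 5 libraries before any contrast was drawn. The 2 omitted chromosome 2 peaks held 52.8% of its reads against 0 to 13.2% in the others, and repeat peaks held 21.2% of what remained against 6.69 to 10.1%. It had no read in 26.7% of the peaks, and 29.3% of its reads lay in peaks of 40% GC or less, against 8.10 to 13.7% in the other 5 libraries. Replicate 1 of Ogg1-/- and of DKO, in the same fit, leaned the same way. They held 21.6 and 31.7% of their reads in the chromosome 2 peaks. Their shares in peaks of 40% GC or less were 17.1 and 18.7%. In every genotype replicate 1 was the highest library in both shares. The main counts below are also given without Mutyh-/- replicate 1. H3K4me3 in the same nuclei was read at cell type markers: 10 of 12 neuronal marker genes had a promoter peak, including Rbfox3, which encodes NeuN, and 4 of 26 glial and vascular markers did. Summed H3K4me3 at the neuronal marker promoters was 284 to 295 normalised reads in WT and 262 to 307 in Mutyh-/-, and at the glial and vascular ones 74.0 to 80.7 and 68.2 to 80.8. The 4 glial and vascular markers with a peak were Slc1a3, Mbp, Kdr and Oaf. Gfap, Aqp4, Olig2, Cx3cr1 and Pecam1 had no promoter H3K4me3 peak here, and none in the non-neuronal (NeuN-) nuclei either. In NeuN- nuclei 2 of 26 glial and vascular markers and 0 of 12 neuronal ones had such a peak. A glial marker without a peak in neurons therefore says little about purity. The Mutyh gene itself carried no H3K27me3 peak, so the knockout could not be checked in these libraries. The 48 peaks within 10 Mb of it included 0 higher and 2 lower differentially enriched regions, defined below. That is a share of 4.17%, against 4.89% over all peaks. The median log2 difference of the 48 was -0.20, against -0.07 over all peaks.

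The loci below, from each annotation class, are shown first to give the base composition within peaks. Each line is the central 201 bases of the peak on the + strand of GRCm38, read from the reference genome, in lower case with every CG dinucleotide in capitals. The dinucleotide reads the same on both strands, and 94.7% of the 4130 whole peaks held at least 1. The promoter peak is that of Aida (chr1:183299207-183299407), higher in Mutyh-/-. The gene body is represented by Lcp2 (chr11:34074138-34074338, lower) and Creb5 (chr6:53305477-53305677, higher), and distal intergenic sequence by Cbln4 (chr2:172080595-172080795, lower) and P4ha2 (chr11:54140516-54140716, higher).
Aida: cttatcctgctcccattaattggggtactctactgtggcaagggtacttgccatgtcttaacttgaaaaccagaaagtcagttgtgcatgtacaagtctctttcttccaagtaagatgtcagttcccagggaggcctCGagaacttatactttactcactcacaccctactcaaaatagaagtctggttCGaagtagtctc
Lcp2: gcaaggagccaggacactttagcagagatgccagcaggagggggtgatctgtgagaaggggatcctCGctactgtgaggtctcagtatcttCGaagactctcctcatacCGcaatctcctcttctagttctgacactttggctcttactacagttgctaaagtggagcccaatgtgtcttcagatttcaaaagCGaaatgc
Creb5: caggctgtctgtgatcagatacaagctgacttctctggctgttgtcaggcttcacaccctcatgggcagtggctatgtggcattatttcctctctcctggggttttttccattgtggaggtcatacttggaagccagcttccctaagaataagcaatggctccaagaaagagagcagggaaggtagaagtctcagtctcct
Cbln4: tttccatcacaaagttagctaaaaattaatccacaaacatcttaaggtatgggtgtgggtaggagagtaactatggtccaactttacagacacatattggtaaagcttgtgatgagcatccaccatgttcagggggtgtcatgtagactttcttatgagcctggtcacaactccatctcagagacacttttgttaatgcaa
P4ha2: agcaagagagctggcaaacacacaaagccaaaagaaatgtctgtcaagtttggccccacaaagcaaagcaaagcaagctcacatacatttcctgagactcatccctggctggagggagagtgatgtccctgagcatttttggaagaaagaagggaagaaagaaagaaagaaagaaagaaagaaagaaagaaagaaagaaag
The Aida window held 2 CG dinucleotides at 43.8% GC and the Lcp2 window 4 at 49.3%. The Creb5, Cbln4 and P4ha2 windows held 0, and the P4ha2 window ended in a run of simple gaaa repeats.

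Across the 4130 peaks, 202 (4.89%) were differentially enriched regions (DERs). A DER needed a log2 difference beyond 0.5 in either direction and a p under 0.05 before adjustment. Of these, 87 (2.11%) were higher and 115 (2.78%) lower in Mutyh-/-, with log2 differences from -3.16 to 3.48. The threshold alone lets through about 5% of peaks where nothing differs, so the number of DERs did not exceed that share. None of them passed Benjamini-Hochberg correction over all peaks in the main fit: limma gave 0 peaks at an adjusted p under 0.05, 203 at an unadjusted p under 0.05 and a smallest adjusted p of 0.0992. Likewise edgeR and DESeq2 gave 0, with 168 and 199 peaks at an unadjusted p under 0.05. A limma fit with a term for the replicate number gave 4 peaks at an adjusted p under 0.05, which the last section names. The DERs lay at 198 genes and had a median of 5.48 normalised reads, with 83 of them under 5, 13 without a read in any Mutyh-/- library and 8 without one in any WT library. All 3 libraries of one genotype lay on one side of the other in 140 DERs. Over all peaks such separation occurred in 4.6% with Mutyh-/- higher and in 5.74% with Mutyh-/- lower. The balance of directions depended on scaling. With the deposited factors of the authors in place of TMM factors, 43 DERs were higher and 115 lower, and the median log2 difference of all peaks moved from -0.07 to -0.21. ChIP on pooled nuclei cannot tell fewer nuclei with the mark from less mark per nucleus.

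At promoters most DERs were lower in Mutyh-/-, and in gene bodies and distal regions the directions were nearly even, a balance that was lost when Mutyh-/- replicate 3 was left out. The classes were not tested against each other. Promoter peaks, within 2 kb of a start site, numbered 1095 and had 13 higher and 42 lower DERs, a share of 5.02% against 4.89% over all peaks, with a median log2 difference of -0.15. The 1257 gene body peaks had 34 higher and 38 lower DERs and a median of -0.05, and the 1778 distal intergenic peaks had 40 and 35 and a median of -0.04. The promoter excess lay within 1 kb of the start site, where 6 DERs were higher and 34 lower, whereas 7 and 8 lay between 1 and 2 kb. It shrank when Mutyh-/- replicate 1 was left out. Promoters then had 19 higher and 35 lower DERs and a median of 0.03, gene bodies 28 and 31, and distal regions 39 and 46, against 86 and 112 over all peaks. Without Mutyh-/- replicate 3 the excess of lower DERs grew, to 6 and 69 at promoters with a median of -0.28, 29 and 62 in gene bodies, and 44 and 63 in distal regions, or 79 higher among 273 DERs in all. Without WT replicate 3 promoters had 17 and 28. With the deposited scaling factors lower DERs led in every class, with 4 and 37 at promoters, 18 and 39 in gene bodies and 21 and 39 in distal regions. Lower promoter DERs were CpG-rich, with a median GC content of 59.2% and 19.5 CG dinucleotides per peak, whereas higher promoter DERs had 46.4% and 6. All promoter peaks had medians of 54.6% and 12. The sparse GC-rich coverage of Mutyh-/- replicate 1 moved with these promoter counts, and its part in them was not tested.

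**Figure D1:**
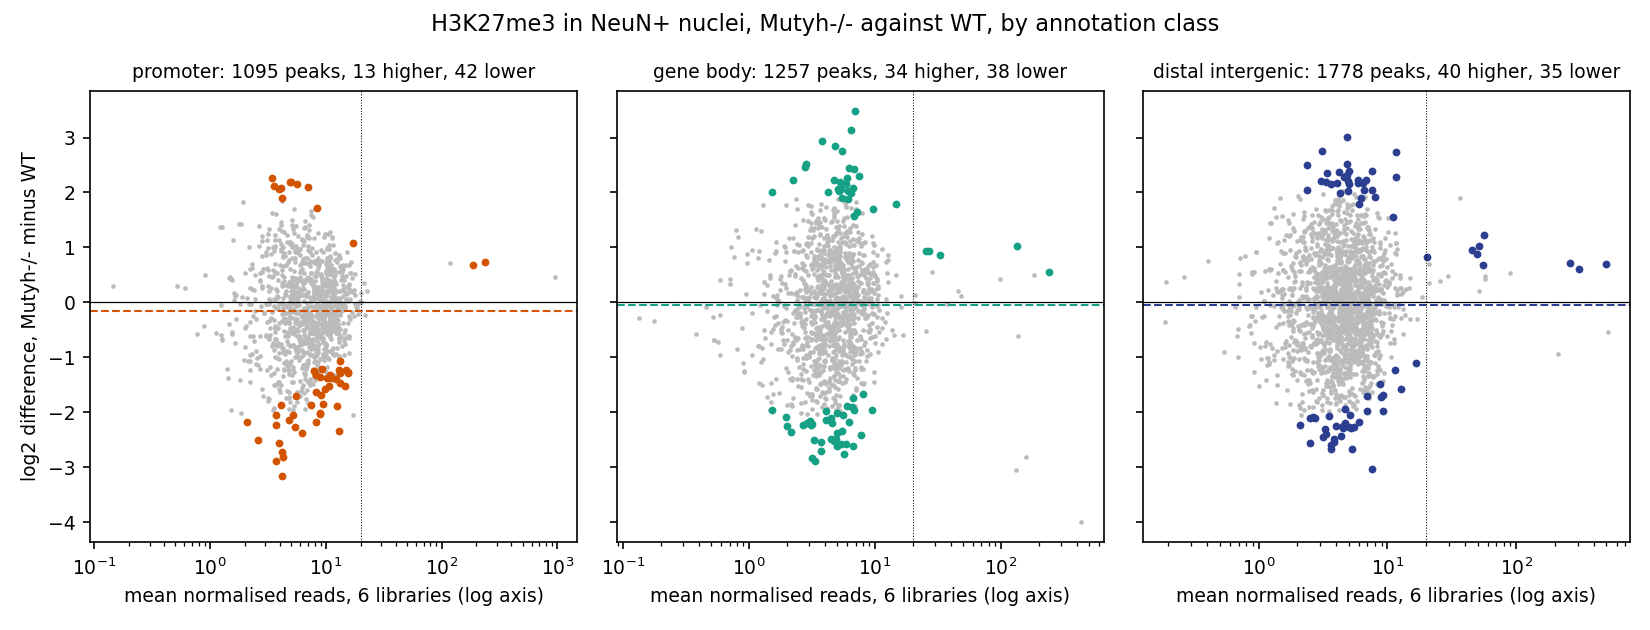
Log2 difference in H3K27me3, Mutyh-/- minus WT, against the mean normalised reads of the 6 libraries (log axis), with 1 point per peak and 1 panel per annotation class. Coloured points are DERs, dashed lines are class medians and the dotted line marks 20 reads. Promoters show 42 DERs below the line and 13 above it, and to the right of 20 reads every DER is higher.

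The plot by class shows a pair of features that the counts hide. Most DERs lie below 20 reads among many peaks that were not DERs, and the peaks over 20 reads stand above 0 among their DERs in each class.

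The share of reads per class was then read library by library. Promoter peaks held 34.2, 36.6 and 37.3% of the reads in WT replicates 1 to 3 and 25.5, 36.6 and 37.6% in Mutyh-/- replicates 1 to 3. Mutyh-/- replicate 1 was the lowest of the 6, and the other Mutyh-/- libraries lay within the WT range or just above it. The difference of means was -2.81 percentage points (33.2 ± 6.68 against 36.05 ± 1.65, SD, n = 3, exact two-sided permutation p = 0.9), and it turned to 1.04 without that library. Distal intergenic peaks held 38.8, 36.1 and 36.6% in WT and 41.8, 37.9 and 36.3% in Mutyh-/-, a difference of 1.46 percentage points (exact permutation p = 0.6) that became -0.11 without Mutyh-/- replicate 1. Gene body peaks differed by 1.35 percentage points (exact permutation p = 0.9), which turned to -0.93 without Mutyh-/- replicate 1. With 3 libraries against 3, no such test can give a p below 0.1.

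The peaks described next are the leading ones: in each class and direction, the 4 DERs with the smallest p among those in which the genotypes did not overlap, the mean was at least 5 normalised reads and under 50% of the bases were repeat-masked. Separation of the groups and a small p were therefore conditions of the choice and are given as a description. There were 24 leading peaks, 12 in each direction, and their p ran from 2.4e-05 to 0.0254 before adjustment over all peaks and from 0.0992 to 0.91 after it.

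The 4 lower leading promoter peaks, out of 42 lower promoter DERs, were at Lox, En2, H2-Q10 and Rab11fip1. Lox encodes lysyl oxidase, which cross-links collagen and elastin, and its peak (chr18:52529169-52529569) lay 105 bp from the start site. It had 30.5, 15.8 and 16.7 normalised reads in WT replicates 1 to 3 and 0, 9.15 and 6.02 in Mutyh-/- replicates 1 to 3 (log2 difference -2.34, SE 0.55, limma adjusted p = 0.0992). All Mutyh-/- libraries were below all WT libraries, and the one without a read was replicate 1. En2, an engrailed homeobox factor of midbrain and cerebellar development, had its peak over the start site. The 3 WT libraries were tight there, at 13.7, 14.7 and 13.5, and the Mutyh-/- libraries held 0, 6.87 and 5.16 (log2 difference -2.03, SE 0.66, limma adjusted p = 0.767). H2-Q10, a non-classical class I histocompatibility gene, had 22.1, 22.6 and 14.3 normalised reads in WT and 3.15, 8.01 and 9.47 in Mutyh-/- (log2 difference -1.47, SE 0.52, limma adjusted p = 0.882) at chr17:35470188-35470588. Its sequence is not unique, since 24.9% of the 21-base words of the peak occurred in another peak. At Rab11fip1, an effector of the recycling endosome GTPase Rab11, WT libraries had 9.47, 16.9 and 17.5 and Mutyh-/- libraries 1.58, 2.29 and 5.16 (log2 difference -2.02, SE 0.72, limma adjusted p = 0.882) at chr8:27174289-27174689. This peak was the most GC-rich of the lower promoters named, at 73.1% GC.

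The higher promoter peaks were of 2 kinds, strong peaks with a small log2 difference and weak peaks with a large one. Aida encodes a protein that interacts with axin, and its peak (chr1:183299107-183299507) lay 1537 bp from the start site. It held 219.8, 156 and 161 normalised reads in WT and 339, 296 and 255 in Mutyh-/- (log2 difference 0.74, SE 0.25, limma adjusted p = 0.882). The lowest Mutyh-/- library was above the highest WT library, with means of 179 ± 35.6 and 297 ± 42.2 (SD, n = 3). Zc3h7a, which encodes a zinc finger protein that binds RNA, had 199.9, 99.2 and 139 in WT and 208, 219 and 250.4 in Mutyh-/- (log2 difference 0.68, SE 0.26, limma adjusted p = 0.907) at chr16:11143903-11144303. WT replicate 1 came close to the Mutyh-/- values. The peak over Mir6236 (chr9:110281110-110281510), named here only as the nearest annotated start, had 11.6, 13.5 and 7.14 in WT and 30.0, 21.7 and 18.9 in Mutyh-/- (log2 difference 1.08, SE 0.45, limma adjusted p = 0.907). At Kif12, a kinesin motor gene, WT libraries had 1.05, 0 and 4.76 and Mutyh-/- libraries 7.88, 8.01 and 12 (log2 difference 2.16, SE 0.96, limma adjusted p = 0.91) at chr4:63169921-63170321. Only 4 promoter peaks met the conditions for a higher leading peak, against 14 for a lower one.

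Within gene bodies the lower leading peaks were close to empty in Mutyh-/-. Lcp2, which encodes the adaptor SLP-76 of antigen receptor signalling, had a peak in intron 8 of 20 (chr11:34074038-34074438). It held 9.47, 7.89 and 13.5 normalised reads in WT and 0, 0 and 3.44 in Mutyh-/- (log2 difference -2.75, SE 0.97, limma adjusted p = 0.882). WT libraries were all above the single Mutyh-/- library with reads. The peak assigned to Habp2, a plasma serine protease gene, lay in a long non-coding gene 165959 bp away (chr19:56120778-56121178), with 10.5, 10.1 and 8.73 in WT and 0, 1.14 and 1.72 in Mutyh-/- (log2 difference -2.58, SE 0.96, limma adjusted p = 0.882). The peak assigned to Zfp644, a zinc finger gene, lay in an intron of the long non-coding gene Gm28050, 61311 bp from the Zfp644 start site, and had 2.1, 11.3 and 15.1 in WT and 0, 0 and 1.72 in Mutyh-/- (log2 difference -2.60, SE 1.01, limma adjusted p = 0.907) at chr5:106562679-106563079, with WT replicate 1 near the Mutyh-/- level. At Slc26a3 (chr12:31443935-31444335), an intestinal chloride and bicarbonate exchanger, the values were 9.47, 13.5 and 12.7 in WT and 1.58, 0 and 2.58 in Mutyh-/- (log2 difference -2.61, SE 1.01, limma adjusted p = 0.907). None of the 4 overlapped a Suz12 or an H3K4me3 peak.

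Higher gene body peaks were led by Creb5, a transcription factor of the CREB and ATF family, at intron 1 of 3 (chr6:53305377-53305777). Its WT libraries held 0, 1.13 and 0 normalised reads and its Mutyh-/- libraries 12.6, 13.7 and 13.8 (log2 difference 3.48, SE 0.95, limma adjusted p = 0.33). The Mutyh-/- libraries were nearly equal to one another, replicate 1 included. Kctd16, an auxiliary subunit of the GABA-B receptor, had a strong peak in intron 2 of 2 (chr18:40308039-40308439) with 96.8, 58.6 and 116 in WT and 181, 183 and 168 in Mutyh-/- (log2 difference 1.02, SE 0.29, limma adjusted p = 0.457). Its Mutyh-/- libraries again lay close together, with a mean of 177 ± 8.36 against 90.4 ± 29.1 in WT (SD, n = 3). The peak of Nr2f2, which encodes the orphan nuclear receptor COUP-TFII, lay 2125 bp upstream of its start site in an intron of the gene B130024G19Rik (chr7:70368860-70369260). Nr2f2 had 0, 0 and 1.59 in WT and 20.5, 5.72 and 11.2 in Mutyh-/- (log2 difference 3.14, SE 1.02, limma adjusted p = 0.767). Tmem119, a microglial membrane protein, had a peak in exon 2 of 2 (chr5:113795280-113795680), with 0, 2.26 and 0 in WT and 17.3, 8.01 and 5.16 in Mutyh-/- (log2 difference 2.76, SE 0.97, limma adjusted p = 0.882). The WT libraries were at or near 0 for both genes.

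The 4 lower leading distal peaks, out of 35 lower distal DERs, had Pou4f3, Cbln4, Foxd3 and Prl2c3 as their nearest genes. The start sites of Cbln4 and Foxd3 lay 37029 and 33561 bp away. Pou4f3, a POU factor of sensory hair cells, had a peak 11031 bp from its start site (chr18:42383108-42383508) with 18.9, 10.1 and 11.9 normalised reads in WT and 0, 0 and 4.3 in Mutyh-/- (log2 difference -3.03, SE 0.88, limma adjusted p = 0.457). Mutyh-/- replicates 1 and 2 had no read there. Cbln4, a secreted synaptic organiser, had 10.5, 9.02 and 8.73 in WT and 0, 3.43 and 0 in Mutyh-/- (log2 difference -2.66, SE 1.00, limma adjusted p = 0.882) at chr2:172080495-172080895. At Foxd3 (chr4:99622338-99622738), a forkhead factor of the neural crest, WT libraries had 11.6, 13.5 and 7.14 and Mutyh-/- libraries 6.31, 1.14 and 1.72 (log2 difference -1.71, SE 0.72, limma adjusted p = 0.907). Here replicate 1 was the highest Mutyh-/- library. Prl2c3, a prolactin family gene, had 13.7, 13.5 and 1.59 in WT and 1.58, 0 and 0.861 in Mutyh-/- (log2 difference -2.28, SE 0.98, limma adjusted p = 0.907) at chr13:12813227-12813627, and WT replicate 3 sat at the Mutyh-/- level.

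Among the higher distal peaks, P4ha2, a collagen prolyl hydroxylase subunit, had the smallest p. Its peak (chr11:54140416-54140816), 12723 bp from the start site in the simple-repeat sequence shown above, had 29.5, 30.4 and 39.7 normalised reads in WT and 67.8, 95 and 74 in Mutyh-/- (log2 difference 1.22, SE 0.32, limma adjusted p = 0.318). The lowest Mutyh-/- library was well above the highest WT library. The peak assigned to the predicted gene Gm8579, 96321 bp from its start site, had 2.1, 0 and 7.94 in WT and 30.0, 14.9 and 15.5 in Mutyh-/- (log2 difference 2.73, SE 0.82, limma adjusted p = 0.585) at chr6:3191798-3192198. Pex2, a peroxisome biogenesis gene, was the nearest start, 284253 bp away, to a strong CpG-rich peak (chr3:5860492-5860892) with 219, 168 and 202 in WT and 299.6, 376 and 297 in Mutyh-/- (log2 difference 0.72, SE 0.24, limma adjusted p = 0.882). The peak assigned to the predicted gene Gm6194, 216484 bp from its start site, had 37.9, 37.2 and 27.8 in WT and 75.7, 61.8 and 55.1 in Mutyh-/- (log2 difference 0.89, SE 0.34, limma adjusted p = 0.888) at chr3:8246151-8246551, with no overlap and replicate 1 the highest Mutyh-/- library. Only 4 distal peaks met the conditions for a lower leading peak and 11 for a higher one.

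**Figure D2:**
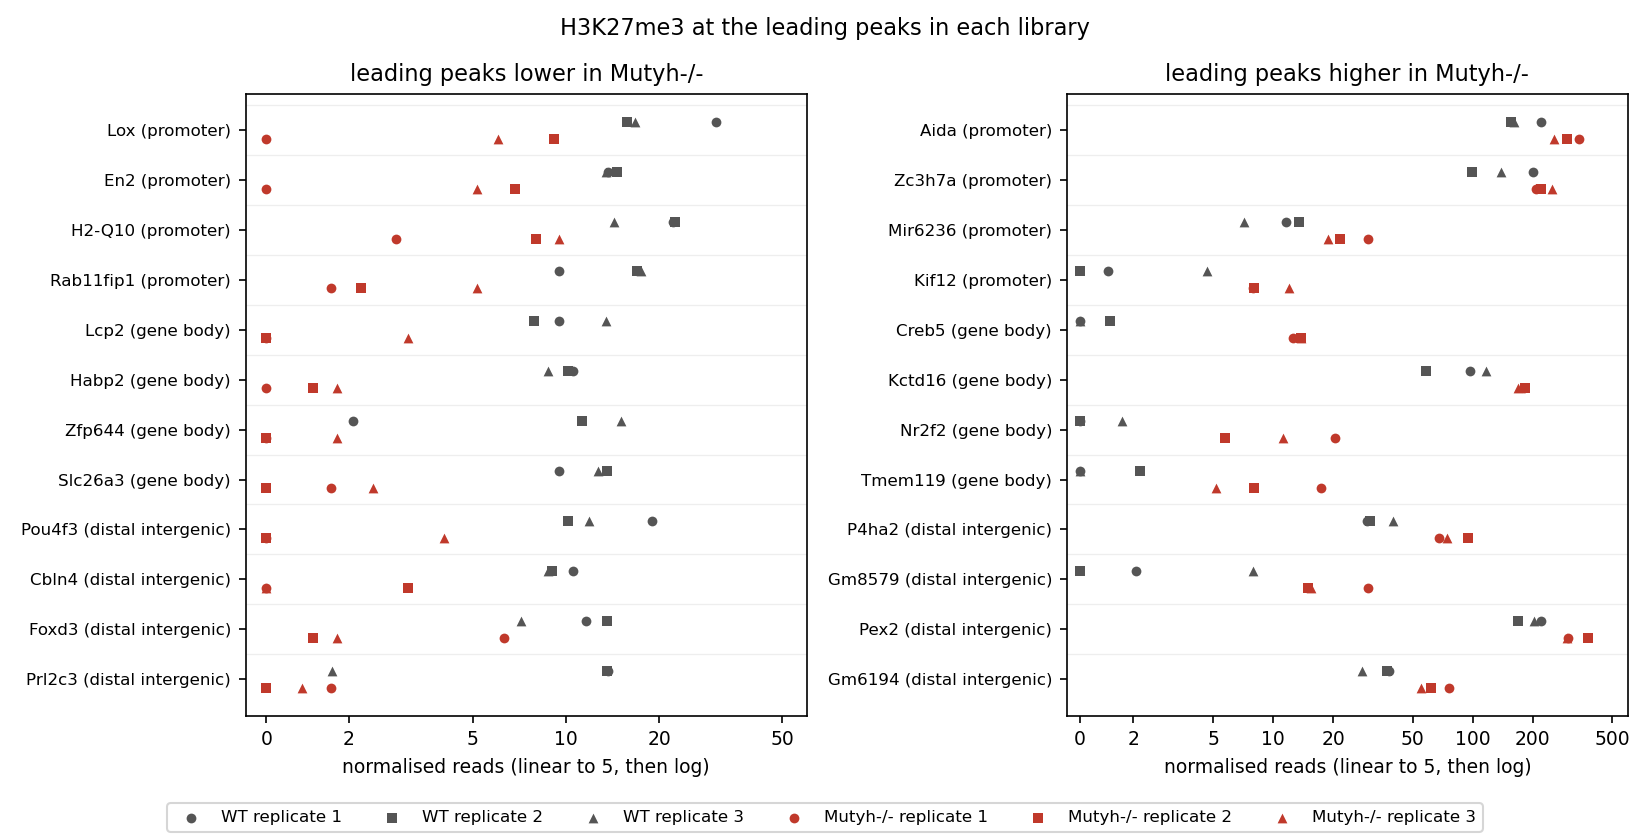
Normalised H3K27me3 reads (axis linear to 5, then logarithmic) at the 12 lower (left) and 12 higher (right) leading peaks, grey for WT and red for Mutyh-/-, with circles, squares and triangles for replicates 1, 2 and 3. The genotypes do not overlap at any of them, which was a condition of the choice.

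In the plot by library, Mutyh-/- replicate 1 is at 0 at several lower peaks, and replicates 2 and 3 are also below WT at each. The 24 peaks kept their direction under 20 alternative settings, on the libraries that chose them. The number with a p under 0.05 was 22 without Mutyh-/- replicate 1, 20 without WT replicate 2, 18 with the deposited factors and 17 without replicate 1 of every genotype, and 7 of the 24 kept it under every setting.

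Most DERs among the strongest peaks were higher in Mutyh-/-. A threshold of 20 normalised reads in the mean of the 6 libraries, set after the values were seen, left 47 peaks, of which 16 (34%) were DERs, all 16 higher in Mutyh-/-, against 2.11% higher DERs over all peaks. Their median log2 difference was 0.47, against -0.07 over all peaks. This threshold used the compared libraries, and 3 of the 16 had a WT mean of 20 reads or less, so the counts are a description. With the threshold set on the Ogg1-/- and DKO libraries instead, 46 peaks had 16 higher and 1 lower DERs and a median of 0.47, and 1 and 1 with the deposited factors. With it set on the WT libraries, 47 peaks had 13 higher and 5 lower DERs and a median of 0.22. Ly6c2, a surface antigen of myeloid cells, was the nearest gene to a strong distal peak (chr15:75086588-75086988) with 491, 328 and 317 reads in WT and 836, 477 and 542 in Mutyh-/- (log2 difference 0.69, SE 0.21, limma adjusted p = 0.588). Mutyh-/- replicate 2 lay within the WT range there. Axin2, a negative regulator and target of Wnt signalling, was the nearest gene to a distal intergenic peak (chr11:109011766-109012166), 68145 bp from its start site. This peak had 267, 196 and 267 in WT and 311, 386 and 409.6 in Mutyh-/- (log2 difference 0.60, SE 0.23, limma adjusted p = 0.907), without overlap. Cdk8, the kinase of the Mediator complex, had 204, 161 and 217 in WT and 227, 277 and 365 in Mutyh-/- (log2 difference 0.56, SE 0.25, limma adjusted p = 0.91) at chr5:146260859-146261259. The peak at Rn45s, the 45S ribosomal RNA precursor, was among the strongest, with 991, 661 and 774 in WT and 989, 1181 and 1157 in Mutyh-/- (log2 difference 0.47, SE 0.18, limma adjusted p = 0.907), and it stayed under the fold threshold of 0.5. Aida, Zc3h7a, Kctd16, P4ha2, Pex2 and Gm6194, described above, belong to the same 16.

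Many of the strong peaks were repeated elsewhere or also enriched with another antibody. Of the 47, 31 overlapped an H3K4me3 peak and 11 were repeat peaks, and 23 (48.9%) shared more than 10% of their 21-base words with another peak, against 240 of 4130 (5.81%) over the table. The part of these features in the differences was not tested. Among the 36 that were not repeat peaks, 13 were DERs, all higher, with a median of 0.47. These 36 held 16.9, 11.9 and 12.4% of the reads in WT replicates 1 to 3 and 21.9, 17.9 and 16.7% in Mutyh-/- replicates 1 to 3. WT replicate 1 lay just above Mutyh-/- replicate 3, so the genotypes overlapped by 1 library. GC-poor peaks at Pak3 (33.9% GC) and Chl1 (30.9% GC) are among the 36. Pak3 had 732, 263 and 229 normalised reads in WT and 1643, 129 and 67.1 in Mutyh-/-. Chl1 had 151, 31.6 and 60.3 in WT and 546, 0 and 0 in Mutyh-/-. Replicate 1 was thus the highest library of both genotypes at these peaks, and their part in the shares was not tested. The other knockouts held 20.9, 15.5 and 18.3% in Ogg1-/- and 19.4, 13.9 and 15.9% in DKO. Their median log2 differences against the same WT libraries, at the 47 peaks, were 0.31 for Ogg1-/- and 0.38 for DKO, which share those controls with Mutyh-/-. Between DKO and Ogg1-/-, which share no library with the Mutyh-/- contrast, the median was -0.12 and 2 peaks were higher and 2 lower. The number of calls depended on scaling and on the test. Without Mutyh-/- replicate 1 there were 15 higher DERs and a median of 0.45, with the deposited factors 1 and a median of 0.27, and with DESeq2 6, all higher. Without WT replicate 2 there were 8 higher and 1 lower, and without the robust option 10 and 3.

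**Figure D3:**
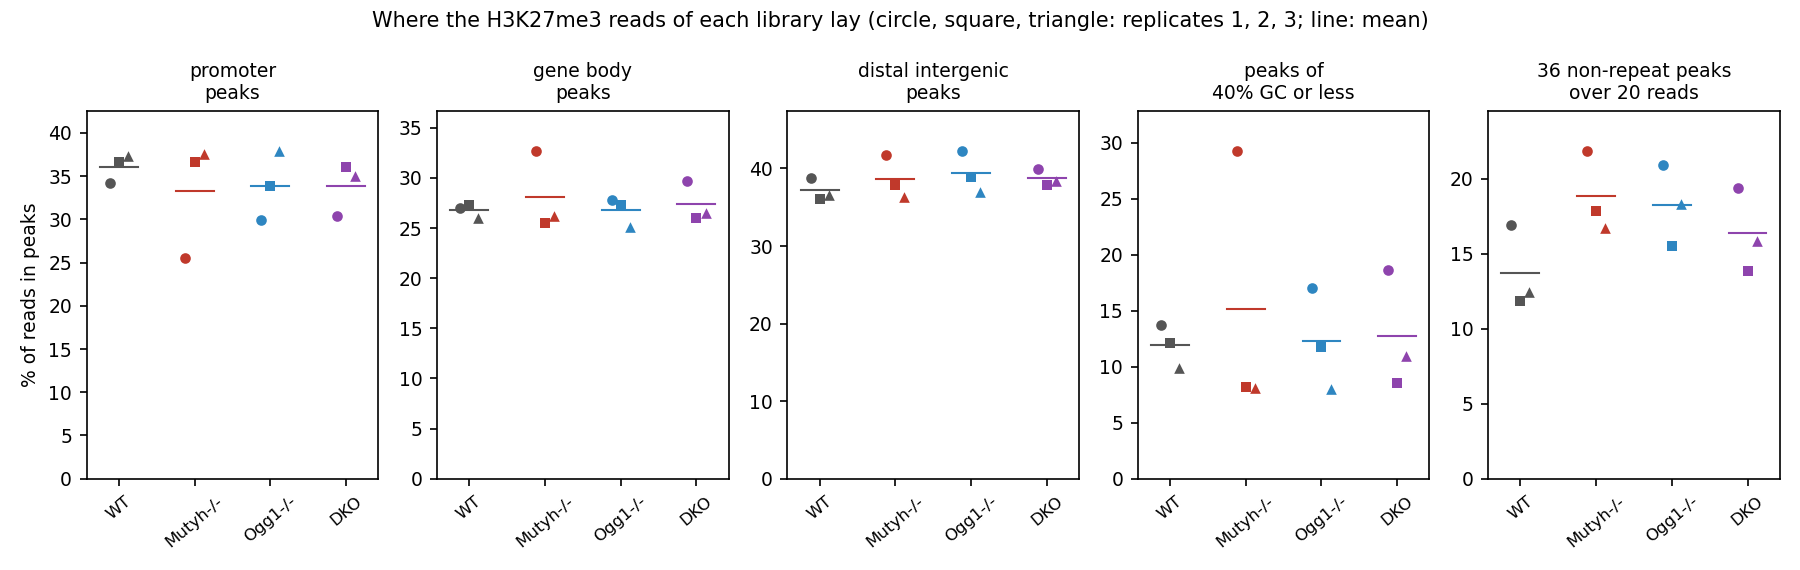
Percent of the reads of each library in promoter, gene body and distal intergenic peaks, in peaks of 40% GC or less, and in the 36 non-repeat peaks over 20 normalised reads. Circles, squares and triangles are replicates 1, 2 and 3, and lines are means of 3 libraries. In the panel of GC-poor peaks Mutyh-/- replicate 1 stands at 29.3%, and in the last panel it is again the highest library. The last panel includes the GC-poor peaks at Pak3 and Chl1, where that library held the most reads.

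The plot of read shares sets the class shares beside the GC share. Mutyh-/- replicate 1 is the outlying point for promoters, gene bodies and GC-poor peaks, while replicates 2 and 3 lie close to WT for promoters and gene bodies and just below WT for GC-poor peaks.

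Genes that Polycomb is known to hold silent were examined as lists. The developmental transcription factors outside the Hox clusters had 375 peaks, of which 12 (3.20%, against 4.89% over all peaks) were DERs. Only Foxe1, a thyroid and palate factor, was higher, with 0, 9.02 and 0 normalised reads in WT and 4.73, 19.5 and 7.74 in Mutyh-/- (log2 difference 2.23, SE 0.83, limma adjusted p = 0.882). The 11 lower ones included Pou4f3, En2 and Foxd3, described above, and Prdm1, Irx5, Irx1, Barhl2, Tlx3, Pax8 and Lhx8. Prdm1, a transcriptional repressor of lymphocyte and germ cell differentiation, had 14.7, 16.9 and 8.73 in WT and 4.73, 0 and 4.3 in Mutyh-/- (log2 difference -2.16, SE 0.88, limma adjusted p = 0.907). All Mutyh-/- libraries were below WT there. Pax8, a thyroid and kidney factor, had 16.8, 10.1 and 20.6 in WT and 0, 16 and 16.4 in Mutyh-/- (log2 difference -1.29, SE 0.59, limma adjusted p = 0.91), where replicates 2 and 3 lay in the WT range and replicate 1 had no read. Lhx8 behaved likewise, with 8.41, 20.3 and 11.9 in WT and 0, 13.7 and 10.3 in Mutyh-/- (log2 difference -1.32, SE 0.61, limma adjusted p = 0.91). The median log2 difference of the list was -0.15, against -0.07 over all peaks. Without Mutyh-/- replicate 1 it was -0.03, with 5 higher and 9 lower DERs, and without Mutyh-/- replicate 3 it had 2 and 21. At their 97 promoter peaks 0 DERs were higher and 6 lower (6.19%, median -0.20), and without Mutyh-/- replicate 1 there were 2 and 4. The 998 promoter peaks of other genes also leaned lower, with 13 higher and 36 lower DERs (4.91%) and a median of -0.14. Without Mutyh-/- replicate 1 those had 17 and 31. The Hox genes had 9 peaks, with 1 DER, a share of 11.1% against 4.89% over all peaks. It was the lower peak of Hoxa2 (10.5, 19.2 and 23 in WT and 11, 2.29 and 6.88 in Mutyh-/-, log2 difference -1.39, SE 0.65, limma adjusted p = 0.915), and Mutyh-/- replicate 1 there lay just above the lowest WT library.

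Signalling, adhesion and channel genes gave 0 to 2 DERs in lists of 9 to 47 peaks, shares of 0 to 11.1% against 4.89% over all peaks. The 47 peaks of Wnt ligands, receptors and regulators included 2 DERs, both higher. They were the distal peak assigned to Axin2, 68145 bp from its start site and described above, and a peak of Lef1. Lef1, a nuclear effector of the pathway, had 0, 2.26 and 11.1 normalised reads in WT and 9.46, 6.87 and 13.8 in Mutyh-/- (log2 difference 1.65, SE 0.78, limma adjusted p = 0.915). The median of the Wnt list was -0.36, opposite in sign to the 2 DERs, and -0.13 without Mutyh-/- replicate 1. The calls themselves turned to 0 higher and 2 lower without Mutyh-/- replicate 3, and 0 were higher with the deposited factors. The 17 axon guidance peaks included Plxnd1, a semaphorin receptor (0, 0 and 9.52 in WT and 18.9, 8.01 and 3.44 in Mutyh-/-, log2 difference 2.08, SE 0.85, limma adjusted p = 0.907) and had a median of 0.62. That median was 0.01 without WT replicate 1 and 0.12 without Mutyh-/- replicate 3, and no axon guidance peak was a higher DER without WT replicate 1, WT replicate 2 or Mutyh-/- replicate 1, or with edgeR or DESeq2. Among 17 peaks of voltage-gated calcium and sodium channels, that of Scn10a, a sensory neuron sodium channel, had no read in WT and 6.31, 3.43 and 12.9 in Mutyh-/- (limma adjusted p = 0.882). Among 9 peaks of glutamate receptors and postsynaptic scaffolds, Grik1, a kainate receptor subunit, was lower at 1 peak (3.16, 7.89 and 10.3 in WT and 0, 1.14 and 0 in Mutyh-/-, log2 difference -2.54, SE 1.04, limma adjusted p = 0.907) and did not pass at 2 others. The 30 cadherin and synaptic adhesion peaks included Cdh1, the epithelial cadherin, with 10.5, 4.51 and 13.5 in WT and 0, 5.72 and 1.72 in Mutyh-/- (log2 difference -1.88, SE 0.92, limma adjusted p = 0.923). The genotypes overlapped at Lef1, Plxnd1 and Cdh1. The GABA and interneuron list, with 12 peaks, and the potassium channels, with 19, had 0 DERs, with medians of -0.39 and -0.45. Those medians were -0.09 and -0.19 without Mutyh-/- replicate 1, and -0.55 and 0.06 with a mean of at least 5 normalised reads required. The peak of Gad1, which makes GABA, had 4.21, 14.7 and 12.7 in WT and 0, 4.58 and 7.74 in Mutyh-/- (log2 difference -1.51, SE 0.85, limma adjusted p = 0.937).

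Peaks at markers of cell identity, chromatin regulators and repair genes were few. The 15 glial and vascular marker peaks had 1 DER, Tmem119, a share of 6.67% against 4.89% over all peaks. Their summed level was 97.8, 138 and 115 normalised reads in WT replicates 1 to 3 and 99.3, 148 and 124 in Mutyh-/- replicates 1 to 3. The 3 neuronal marker peaks, at Gad1, Gad2 and Prox1, had 0 DERs. The 9 peaks of Polycomb subunits and H3K27 demethylases had 2 DERs (22.2%, against 4.89% over all peaks). Without WT replicate 2, and likewise without Mutyh-/- replicate 2, that list had 0 higher and 0 lower DERs. Jarid2, a PRC2 accessory subunit, was higher in intron 4 of 18, with 17.9, 11.3 and 22.2 in WT and 30.0, 43.5 and 26.7 in Mutyh-/- (log2 difference 0.94, SE 0.39, limma adjusted p = 0.907). Aebp2, another accessory subunit of PRC2, was lower at a distal repeat peak, with 4.21, 6.77 and 1.59 in WT and no read in Mutyh-/- (limma adjusted p = 0.915). The Jarid2 peak shared 35.96% of its 21-base words with another peak, and it is also among the strong peaks over 20 reads. Base excision repair genes had 2 peaks, at Smug1 and Nudt1, and 0 DERs. Smug1, a uracil glycosylase, had 0, 2.26 and 2.38 in WT and 1.58, 3.43 and 11.2 in Mutyh-/- (log2 difference 1.22, SE 1.00, limma adjusted p = 0.965), and Nudt1, which clears oxidised nucleotides, had 18.9, 4.51 and 17.5 in WT and 9.46, 8.01 and 6.02 in Mutyh-/- (log2 difference -0.54, SE 0.83, limma adjusted p = 0.982). The 44 olfactory and vomeronasal receptor peaks had 3 higher and 3 lower DERs, 68 peaks of olfactory receptors under their current symbols had 3 and 1, and 110 peaks of Zfp zinc finger genes had 4 and 3. These are shares of 13.6, 5.88 and 6.36% against 4.89% over all peaks. Without Mutyh-/- replicate 1 these counts were 2 and 1, 1 and 3, and 4 and 4. Without WT replicate 1 they were 3 and 1, 5 and 2, and 9 and 2. Wnt6, a Wnt ligand, and Oaf had 1 peak each and 0 DERs. Wnt6 had 5.26, 6.77 and 3.97 in WT and 4.73, 4.58 and 2.58 in Mutyh-/- (log2 difference -0.36, SE 1.00, limma adjusted p = 0.992), and Oaf had 10.5, 14.7 and 4.76 in WT and 9.46, 11.4 and 10.3 in Mutyh-/- (log2 difference 0.17, SE 0.70, limma adjusted p = 0.992).

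**Figure D4:**
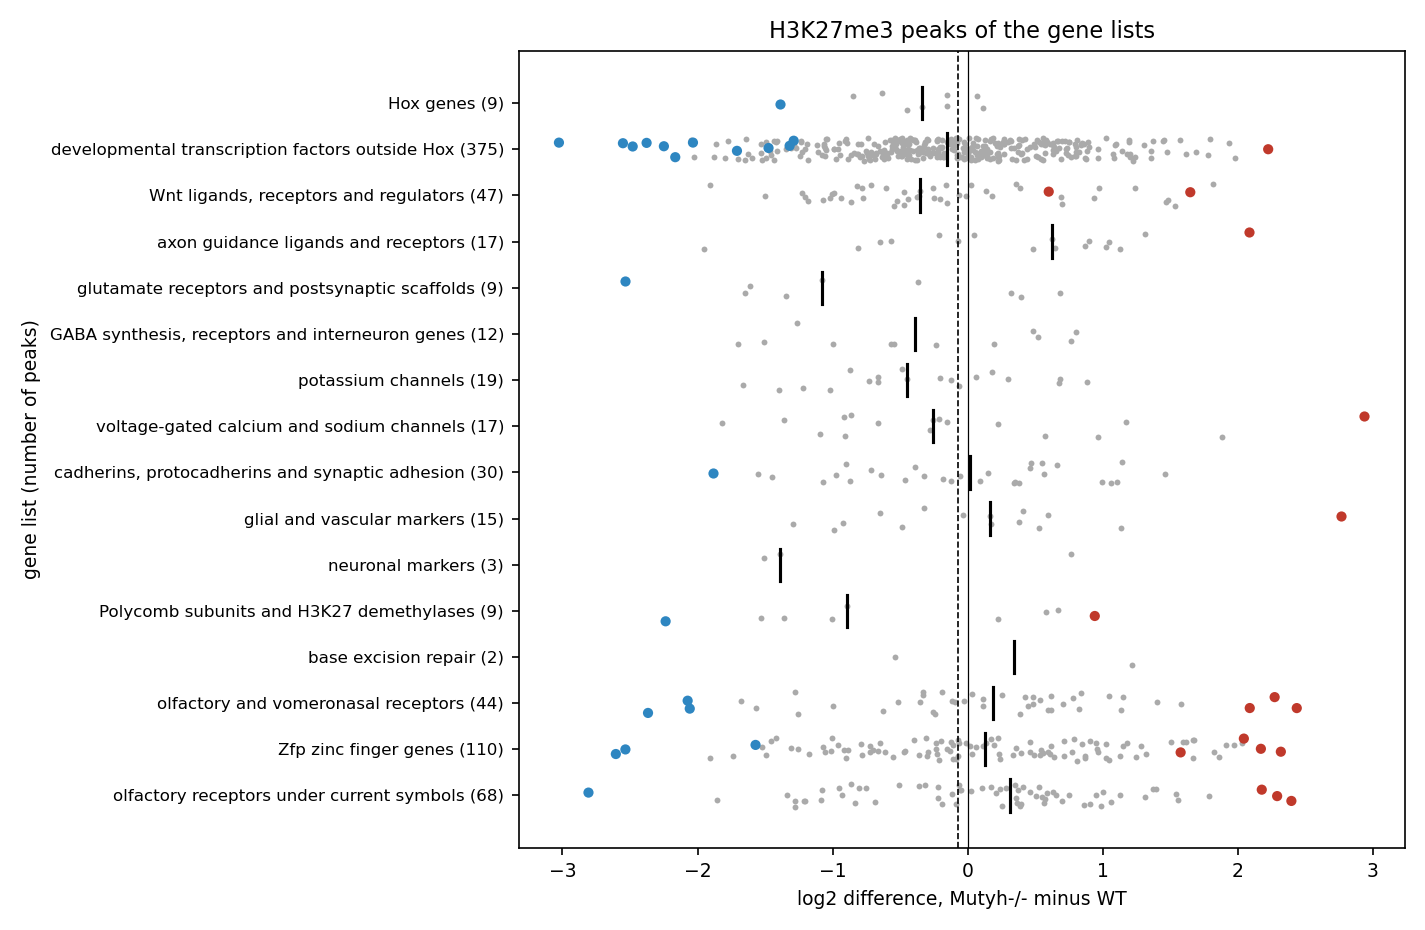
Log2 difference in H3K27me3, Mutyh-/- minus WT, of every peak in each gene list, with the number of peaks in brackets. Red and blue points are higher and lower DERs, black bars are list medians and the dashed line is the median of all peaks at -0.07. Developmental transcription factors show 11 blue points and 1 red point within a broad grey cloud.

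The plot of the lists shows how short most of them are. The medians of the short lists moved with single libraries: the glutamate median of -1.08 became -0.35 without Mutyh-/- replicate 1.

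The same sites were then read for Suz12 and H3K4me3, which had no part in choosing them. Of the 24 leading peaks, 9 overlapped a Suz12 peak and 8 an H3K4me3 peak, and none was a DER for either mark, against 4.67% DERs among the 771 Suz12 peaks and 3.66% among the 12625 H3K4me3 peaks. With 1 library left out, the number of DERs for these marks at the leading peaks ran from 0 to 3, the most without WT replicate 1. The nearest to a Suz12 DER was Kctd16, with a log2 difference of 1.69 (SE 0.83). At Lox Suz12 differed by -1.11 (SE 0.97) and at P4ha2 by 0.50 (SE 1.08). Of all 202 H3K27me3 DERs, 30 overlapped a Suz12 peak, and 3 of these were Suz12 DERs, all higher in both: Ly6c2 (Suz12 log2 difference 1.52, SE 0.55), the zinc transporter Slc30a4 (3.61, SE 1.28) and Plxnd1 (2.82, SE 1.18). None passed correction over the Suz12 peaks. The Suz12 library of Mutyh-/- replicate 1 stood apart as well, with 60.9% of its reads in the chromosome 2 peaks against 14.5 to 33.5% in the other 5 and no read in 25.6% of its peaks, and its part in these values was not tested. At Ly6c2 the Suz12 level in Mutyh-/- was 463 ± 363 (SD, n = 3), and 36.7% of the 21-base words of its H3K27me3 peak occurred in another peak. The 29 DERs at H3K4me3 peaks included 0 H3K4me3 DERs. Peaks that overlapped a Suz12 peak had 20 higher and 10 lower DERs among 190, 15.8% against 4.89% over all peaks, and a median log2 difference of 0.10. Without Mutyh-/- replicate 1 they had 19 and 9, without WT replicate 2 there were 11 and 6, with DESeq2 8 and 5, and with the deposited scaling factors the balance turned to 4 higher and 7 lower. Their median log2 difference of 0.10, against -0.07 over all peaks, also moved. It was 0.05 against 0.02 without Mutyh-/- replicate 1, and 0.003 against -0.005 without replicate 1 of every genotype. With the deposited factors it was -0.08 against -0.21. These 190 peaks also held more reads, with a median of 11.96 against 4.97 over all peaks. By class, 10 of 40 higher distal DERs (25%) overlapped a Suz12 peak, against 2.70% of all distal peaks, and 9 of 42 lower promoter DERs (21.4%) did, against 10.4% of all promoter peaks. Of the higher promoter DERs 4 of 13 (30.8%) did, of the lower distal DERs 1 of 35 (2.86%), and of the gene body DERs 6 of 34 higher and 0 of 38 lower ones. Most of the 10 higher distal DERs at Suz12 peaks were among the 47 peaks over 20 reads. P4ha2, Axin2, Ly6c2, Pex2 and Gm6194 belong to both. Their share therefore largely repeats the strong peaks described above and is not a separate result.

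Loss of Mutyh was also compared in mice that lacked Ogg1, the glycosylase that excises 8-oxoguanine itself. DKO against Ogg1-/- shared no library with the contrast above, although all 12 libraries gave 1 estimate of the spread. It gave 178 DERs (4.31%), 91 higher and 87 lower. With limma 0 peaks had an adjusted p under 0.05 and 178 an unadjusted one, and edgeR and DESeq2 also gave 0, with 112 and 174. Such peaks numbered 1, 1 and 3 when Ogg1-/- replicate 1, 2 or 3 was left out. Of the 24 leading peaks, 11 had the same sign there and 0 had a p under 0.05. Creb5 had a log2 difference of 0.39 (SE 0.95) and Nr2f2 of 0.63 (SE 1.02), both in the direction seen against WT but within their error. Lox differed by -0.03 (SE 0.55) and En2 by -0.02 (SE 0.66). Kctd16, with the smallest p of 0.0801, was lower at -0.51 (SE 0.29), opposite to its sign against WT. Of all 202 DERs, 97 (48.02%) kept their sign, against 2000 of 4130 (48.4%) over all peaks. A DER in both contrasts was found at 3 genes, of which only Mybpc2, a muscle myosin-binding protein, had the same sign, at -2.17 in both. Vegfa, the vascular growth factor, was at 2.37 against WT and -2.43 in DKO against Ogg1-/-, and Fbxw4, an F-box gene, at 0.86 and -0.73. The test of the difference between the 2 contrasts gave 0 peaks at an adjusted p under 0.05 with limma, a smallest adjusted p of 0.828, and 190 at an unadjusted p under 0.05. With edgeR and DESeq2 it gave 0 as well, and 139 and 205 at an unadjusted p under 0.05.

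**Figure D5:**
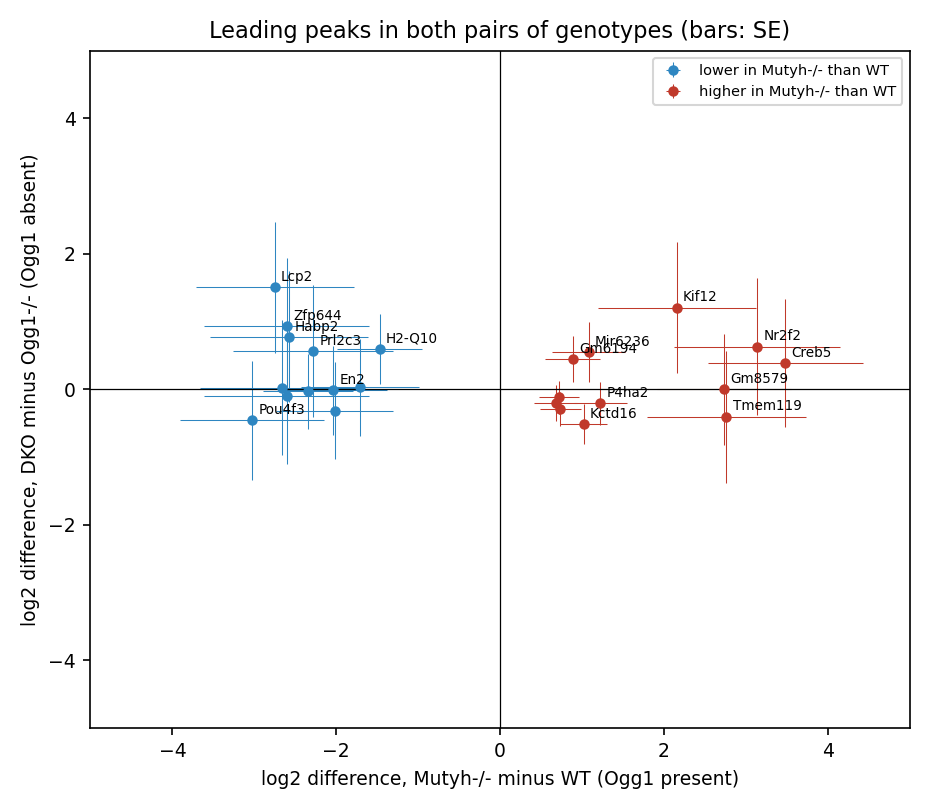
Log2 differences at the 24 leading peaks, Mutyh-/- minus WT on the horizontal axis and DKO minus Ogg1-/- on the vertical axis, with bars for the standard error. Points lie to both sides of 0 on the vertical axis, and 11 of 24 have the same sign on both axes.

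The plot of the pair of contrasts spreads the leading peaks widely along the WT axis, as their choice fixed, and gathers them around 0 on the other.

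The other knockouts against the same WT libraries were set side by side for 6 of the 24 leading peaks, chosen after their values were seen, with the controls shared. Creb5 stood at 3.48 in Mutyh-/-, 2.09 in Ogg1-/- and 2.48 in DKO on the log2 scale. P4ha2 stood at 1.22, 1.40 and 1.20, and Slc26a3 at -2.61, -1.76 and -1.86. Lox stood at -2.34, -0.42 and -0.44, so that its Ogg1-/- and DKO values were nearer to WT. En2 stood at -2.03, -0.22 and -0.24, and Foxd3 at -1.71, 0.06 and 0.09. Because each value subtracts the same 3 WT libraries, a low or high WT level enters all of them.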

How the data were processed

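H3K27me3 ChIP of NeuN+ hippocampal nuclei was analysed in 3 Mutyh-/- and 3 WT libraries, with the Ogg1-/- and DKO libraries in the same fit. Per the submitters' notes and methods, the authors aligned reads to GRCm38 with Bowtie2 2.3.5.1, called enriched regions with epic2 at an FDR of 0.05, counted them with DiffBind 3.10.1 and annotated them with ChIPseeker 1.36. The handling of input, duplicates and blacklisted regions is not given in the sources used here. The values deposited by the authors are a signal: the reads in each 401-bp peak times 1 factor for the library. All values were whole multiples of that factor within 0.001 reads, so whole reads were recovered from them. Reads were scaled with TMM factors (edgeR 4.0.16) and tested with limma 3.58.1 (limma-trend, robust empirical Bayes, genotype as the only term) on log2(normalised reads + 1), a scale that understates changes at weak peaks. Since the deposited values are not raw counts, edgeR's quasi-likelihood test and DESeq2 1.42.0 on the recovered reads were alternatives. Benjamini-Hochberg adjustment ran over 4130 peaks. The prior degrees of freedom were infinite for 3980 of these, so their own spread did not enter p. Classes merge the deposited annotations, with UTR, exon, intron and downstream peaks as gene body. Repeat peaks had at least 50% of bases masked. Leading peaks followed the rule given with them, and gene lists were matched by symbol, with up to 3 examples of each. Some items among the results are not reported here. Members and lists were chosen with earlier results of these data known. Scripts were tested on simulated data. Replicates were pools of animals. At those 3980 peaks the limma p and SE rest on a spread between pools estimated across peaks of similar level, not at the peak itself.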

Additional observations from a re-analysis of the deposited data

How the results depend on the processing

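The count of DERs against WT was 202 and lay between 173 and 273 when 1 library was left out. Requiring a mean of at least 5 normalised reads left 109 DERs, 51 of them higher, and the deposited factors gave 43 higher DERs against 87. Peaks at an adjusted p under 0.05 numbered 0 with limma, 1 with a pseudocount of 0.5, and 0 to 1 when 1 library was left out. The 1 peak appeared without Mutyh-/- replicate 2 and without Mutyh-/- replicate 3. For DKO against Ogg1-/-, 178 DERs became 72 with a mean of at least 5 reads and 112 with edgeR. The difference in the share of reads in promoter peaks, -2.81 percentage points, ran from -4.97 to 1.04 when 1 library was left out and was positive only without Mutyh-/- replicate 1. That in the share of reads in distal intergenic peaks, 1.46, ran from -0.11 without the same library to 2.64, and was -3.48 with the chromosome 2 peaks kept. DERs for H3K4me3 or Suz12 at the leading peaks numbered 0, then 1 with the deposited factors, 1 with edgeR, and 0 to 3 when 1 library was left out. Deviations of same-numbered WT and Mutyh-/- libraries correlated at 0.0870, 0.0171 and 0.0111, and the main fit had no replicate term. At this depth such correlations do not decide whether a replicate number carries a shared effect, which was not tested. Replicate 1 had the highest share of reads in the chromosome 2 peaks in every genotype. That share was 13.2% in WT, 52.8% in Mutyh-/-, 21.6% in Ogg1-/- and 31.7% in DKO. With a replicate block there were 239 DERs and 4 peaks at an adjusted p under 0.05, those of Lox, P4ha2, Kctd16 and Ly6c2, each at 0.0407 with limma. Leaving out replicate 1 of every genotype, chosen after seeing the data, gave 264 DERs and 0 such peaks. The cause of these changes was not tested. At a median of 4.97 reads per peak, changes at most weak peaks were not detectable at this depth.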
